A study of Tursiops truncatus with 28 samples.

Results

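The 300 loci described here are those of middle length whose RNA level differed most from one animal to the next in skin of common bottlenose dolphins (Tursiops truncatus). They were taken from a table of 24091 loci, each an interval of the NIST Tur_tru v1 assembly with its level in FPKM. FPKM is the number of fragments scaled to transcript length and to the mapped fragments of the library. Transcript lengths are not given, and the lengths used here are those of the intervals. Candidates lay off the mitochondrial sequence, were 5000 to 100000 bases long, averaged from 5 to under 100 FPKM, stood above 0 in all 28 libraries, and had an absolute Pearson r under 0.6 with the mitochondrial level of the library. These conditions left 5289 candidates, and the 300 with the highest SD of log2(FPKM + 1) over the 28 libraries became the members. The SD that chose the members holds every kind of difference between libraries. Their spread, their gaps, their grouping and their shares of calls are therefore given as a description.

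Each library came from a different animal of Barataria Bay, Louisiana, whose archived skin was sequenced. The samples fall into 3 sessions by date, namely July 2016 (9 females), June 2017 (11 animals, 3 of them male) and September 2017 (8 animals, 3 of them male). No treatment is given, and ages are not used here. July was sampled only in 2016, so month and year cannot be told apart for July 2016. No male was sampled in 2016, so differences between the sexes rest on the 2017 sessions. The rows carry positions and no gene names, so the genes, exons and sequences of the loci were not analysed here, and the tissue label could not be checked against skin markers.

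Cetacean epidermis is thick and hairless and is renewed from a basal layer of dividing keratinocytes. A skin sample of this kind mixes the keratinocytes of the epidermis with pigment cells, dermal fibroblasts, vessel cells and immune cells. The level of a locus in such bulk tissue follows the share of the cells that transcribe it as well as the RNA made per cell, and fewer cells of a type and less RNA per cell cannot be told apart.

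Libraries differed in depth and in composition. Relative depth, estimated from ratios of low values, ran from 0.762 to 1.48, and the share of summed FPKM in the 10 most abundant loci of a library ran from 22.2% to 41.0%. The highest share was that of June 2017 male 3, whose relative depth was 0.777. July 2016 female 6 is the library whose title carries another year than its sampling date. The counts of gaps and of calls between July 2016 and the other sessions are given with and without each of these 2 libraries. Other counts include both unless stated.

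The members had a median SD of 0.609 on the log2 scale, with a range from 0.508 to 2.18, while the other 4989 candidates had a median of 0.260. The highest FPKM of a member was a median of 7.23 times its lowest, with a range from 3.6 to 1447, and 96 members spanned more than 10-fold. In the other candidates the same ratio had a median of 2.18, and 0 of them spanned more than 10-fold. Members were shorter and lower than the rest of the candidates, with a median length of 15953.5 bases against 25886 and a median mean level of 9.14 FPKM against 18.0 FPKM. The members lay on 105 scaffolds, and the scaffold with the most of them, NW_017844625.1, held 15 among its 176 candidates.

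**Figure D1:**
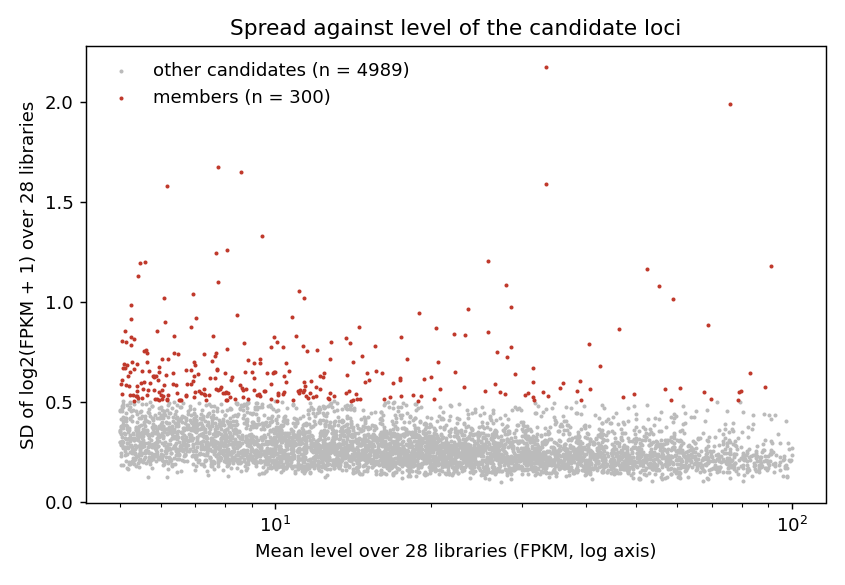
Spread of each candidate locus, as the SD of log2(FPKM + 1) over 28 libraries (vertical axis), against its mean level in FPKM (horizontal log axis). Red points are the 300 members and grey points the other 4989 candidates; the SD of the members runs from 0.508 to 2.18, and the members thin out toward high levels.

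The lower edge of the list was not a break in the data. The last 3 members, NW_017843947.1:2860055-2871436, NW_017842970.1:1401-12153 and NW_017843160.1:14319645-14355715, had SDs of 0.508172, 0.507973 and 0.507586. The first 3 candidates left out, NW_017842580.1:405537-421368, NW_017842421.1:5545890-5565490 and NW_017842605.1:843800-850942, had SDs of 0.507491, 0.507257 and 0.504866.

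The locus with the highest SD, NW_017842989.1:1473011-1504352, separated the sexes. In females it stood at 32.5, 40.4 and 47.8 FPKM (lowest, median, highest) in July 2016, at 35.2, 46.6 and 52.8 FPKM in June 2017, and at 43.0, 43.1, 39.0, 39.3 and 54.9 FPKM in September 2017. In males it stood at 0.973, 0.0379 and 0.112 FPKM in June 2017 and at 0.0478, 0.0852 and 0.0738 FPKM in September 2017. Every female was above every male, and sex together with session took 98.9% of its variance. It was the only member called between the sexes, that is, with an adjusted p under 0.05 in a linear model of session and sex fitted with limma to the 13192 loci averaging 1 FPKM or more (1 of 300 members, against 0.091% of tested loci). The difference, male minus female, was -5.24 on the log2(FPKM + 1) scale (SE 0.121, limma adjusted p = 3.54e-23, lower in 6 of 6 males). The model called 2 members between the sexes without the July 2016 libraries, and also without July 2016 female 5, September 2017 female 1 or September 2017 male 3.

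The other 9 of the 10 loci with the highest SD were called in no comparison. Locus NW_017843191.1:226845-231971 reached 1164 FPKM in July 2016 female 6, where the median of that group was 18.5 FPKM and the lowest 5.53 FPKM. June 2017 females ranged from 1.75 to 117 FPKM around a median of 8.79 FPKM, and the males of that session stood at 18.0, 10.6 and 136 FPKM. The September 2017 females stood at 3.49, 13.4, 143, 178 and 3.55 FPKM and the males at 24.4, 13.7 and 15.8 FPKM. All groups overlapped, high values of over 100 FPKM occurred in each session, and session and sex took 3.63% of its variance. Without July 2016 female 6 its highest value was 178 FPKM, its SD 1.66 and that share 2.62%.

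Locus NW_017843107.1:380923-390735 was near 0 in all but 2 libraries. It stood at 105 FPKM in July 2016 female 7 and at 104 FPKM in September 2017 male 1, while the other 26 libraries ranged from 0.0890 to 0.806 FPKM. The gap between both sides was 5.87 on the log2(FPKM + 1) scale, the widest of any member. The interval lies inside 2 longer loci of the table, NW_017843107.1:367149-509467 with a mean of 38.0 FPKM and a range from 3.04 to 455 FPKM, and NW_017843107.1:367164-509240 with a mean of 0.844 FPKM. The r of the member with the former was -0.06 and with the latter 0.11. Whether counting used the strand is not stated, so fragments of these overlapping loci cannot be told apart.

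Locus NW_017844293.1:9612247-9666065 had a high set of 6 libraries, all from females. June 2017 females 1, 2, 3 and 7, July 2016 female 3 and September 2017 female 1 stood between 28.9 and 36.1 FPKM. The other 22 libraries, 6 of them from males, stood between 1.17 and 5.10 FPKM, and no library lay between the sets. Neither session nor sex was called for this locus. The fitted difference, July 2016 minus June 2017, was -1.21 (SE 0.577, limma adjusted p = 0.216), and male minus female was -0.83 (SE 0.611, limma adjusted p = 1.0). The next member on that scaffold, NW_017844293.1:9672367-9679300, had an r of 0.13 with it over the 28 libraries.

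A step of the same kind, but with most libraries high, was seen at NW_017843255.1:45466787-45474356, the locus of SD rank 14. Its high set held 20 libraries, all 6 males and 14 females, between 42.2 and 112 FPKM. Its low set held 8 females of all sessions between 6.96 and 17.2 FPKM. In July 2016 the group ran from 9.42 over a median of 54.5 to 88.8 FPKM, and in September 2017 the females stood at 54.1, 58.8, 9.67, 12.5 and 11.6 FPKM. The fitted male minus female difference was 1.09 (SE 0.520), which did not pass over all tested loci (limma adjusted p = 1.0).

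In all, 30 members had a gap of at least 1 on the log2 scale between neighbouring values when their libraries were ordered by level, while 5 of the other 4989 candidates did. In 18 of the 30 a single library stood above the gap, in 5 a single library stood below it, and in 7 members at least 2 libraries stood on each side. The rule asks for a mean of at least 5 FPKM over all libraries, so a few high values can bring a locus in. NW_017843107.1:380923-390735, NW_017842414.1:7782510-7802344 and NW_017843879.1:10731810-10738513 reach that mean only through their highest libraries. The rule thus favours gaps with few libraries above, and these counts describe the list. Besides the 4 stepped loci above, the 7 include NW_017843746.1:3183127-3188523, with June 2017 female 2, September 2017 female 3 and July 2016 female 6 at 0.534 to 0.843 FPKM and the other 25 libraries at 2.76 to 21.2 FPKM. They also include NW_017842421.1:11757022-11775248, with July 2016 females 1 and 5 at 20.7 and 18.4 FPKM and the other 26 at 1.0 to 6.86 FPKM. The last is NW_017842605.1:882492-897019, with June 2017 females 6 and 8 at 50.1 and 38.0 FPKM and the other 26 at 8.57 to 17.9 FPKM. These 7 loci were picked after their values were seen.

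**Figure D2:**
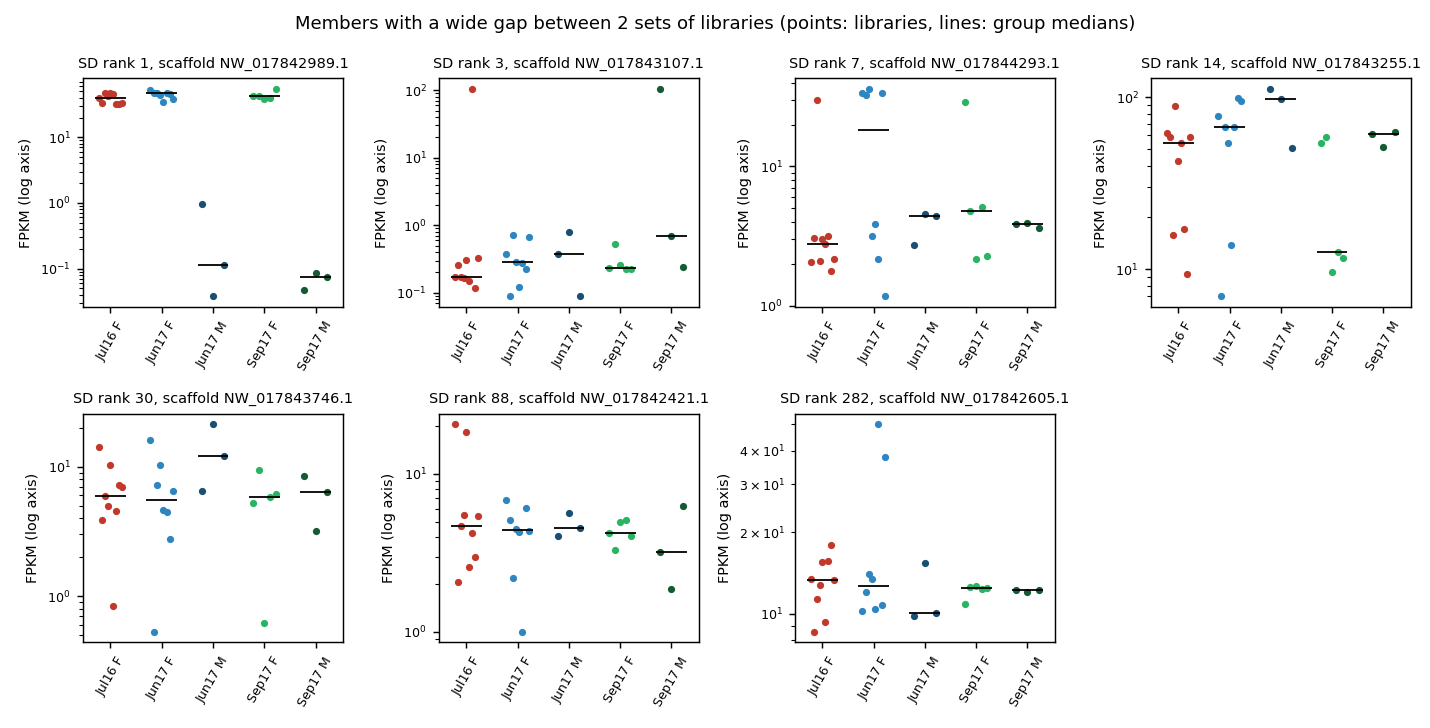
FPKM (vertical log axis) of the 7 members with a gap of at least 1 on the log2 scale and 2 or more libraries on each side, by group of session and sex (Jul16, Jun17, Sep17; F female, M male); each point is a library and each line a group median. The locus of SD rank 1 splits by sex, while at rank 7 the 6 libraries at 28.9 to 36.1 FPKM come from females of all 3 sessions.

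The single high libraries were few. June 2017 male 3 stood alone above the gap in 9 of the 18 members and July 2016 female 6 in 7, and September 2017 female 2 and June 2017 female 4 did so in 1 each. Among the same 300 members 25 had a gap of at least 1 without July 2016 female 6, 21 without June 2017 male 3 and 16 without both, and a single library stood above the gap in 12, 9 and 3 of them. Both left-out libraries were chosen after the data were seen. Counted over all 300 members, the highest value fell in July 2016 female 6 for 36 members and in June 2017 male 3 for 31, while the other libraries held between 3 and 17. The lowest value fell most often in September 2017 female 2, for 25 members. Leaving out July 2016 female 6 before applying the rule kept 275 of the 300 members, and leaving out June 2017 male 3 kept 281.

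**Figure D3:**
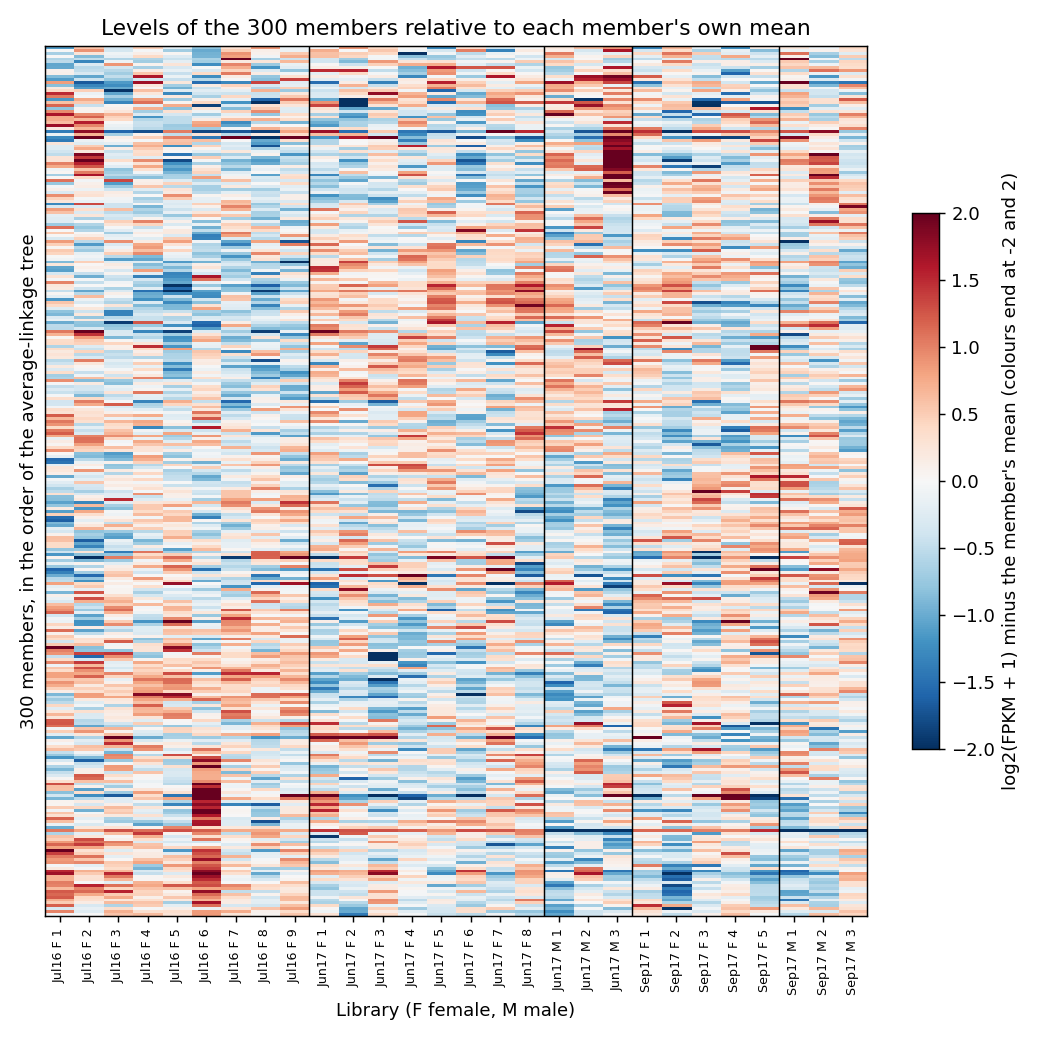
Level of each of the 300 members (rows, in the order of an average-linkage tree on their correlations) in each of the 28 libraries (columns, by session and sex), as log2(FPKM + 1) minus the mean of the member. Dark red blocks in the columns of July 2016 female 6 and June 2017 male 3 are members highest in those libraries, 36 and 31 members in all.

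Another 5 of the 10 loci with the highest SD varied widely but had no gap of at least 1 on the log2 scale. Locus NW_017843946.1:122363-162926 ran from 0.165 FPKM in July 2016 female 8 to 42.7 FPKM in June 2017 male 3. Locus NW_017844169.1:452440-465828 ran from 0.962 FPKM in June 2017 female 1 to 112 FPKM in July 2016 female 9. In NW_017842906.1:535322-550582 the median was 0.412 FPKM in July 2016 and 3.14 FPKM in June 2017 females, but both groups spanned more than 10-fold and overlapped. No library stood between 2.27 FPKM, in June 2017 male 1, and 5.08 FPKM, in June 2017 female 3. That gap was just under the limit of 1, and the median of the June 2017 females fell inside it. Loci NW_017843615.1:1544664-1556290 (0.111 to 20.6 FPKM) and NW_017843712.1:24710457-24770868 (5.05 to 92.1 FPKM) likewise had their high and low libraries in several groups. Session and sex took between 3.58% and 12.8% of the variance at these 5 loci.

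Over all members, session and sex took a median of 17.3% of the variance in log2(FPKM + 1), close to the 15.3% in the other candidates. The 3 terms of that model would take 11.1% of pure noise. In 17 members (5.67%) session and sex took over 50% of the variance, as in 134 of the other candidates (2.69%). In 5 members (1.67%) a single library held over 50% of the squared deviations, as in 10 of the other candidates (0.2%).

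The spread was also present inside each session. The median SD within a session was 0.585 for the members in July 2016, 0.582 in June 2017 and 0.550 in September 2017, while the other candidates had 0.238, 0.252 and 0.222. Of the 300 members, 207 were among the 300 most variable candidates of July 2016 alone, 207 of June 2017 alone and 198 of September 2017 alone. For 109 members this held in all 3 sessions, and for 14 in none. These values reuse the libraries that chose the members.

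Lists chosen without a session allow a reading in libraries the rule did not use, an alternative chosen after the data were seen. The 300 loci chosen on June and September 2017 had a median SD of 0.540 in the 9 libraries of July 2016, where the other candidates had 0.240. Of these loci 168, or 56%, were among the 300 most variable there, while 5.69% of all candidates were. For lists chosen without June 2017 the share was 52% (156 loci, median SD 0.511 against 0.253), and without September 2017 it was 54.3% (163 loci, median SD 0.505 against 0.222). The 3 lists shared 230, 218 and 242 loci with the members. Members were shorter and lower than the other candidates, and these comparisons were not matched for length or level. The part of either in these values was not tested.

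Correlations between members lay on both sides of 0. The median Pearson r over pairs of members was 0.002, and 96 of 44850 pairs, or 0.214%, had an r over 0.7, against 0.054% of pairs of other candidates. These correlations describe 28 libraries that share depth and composition. In a tree cut at r = 0.5, 103 members joined no other, 152 fell into 60 groups of 2 to 9, and 45 formed 4 clusters of at least 10. A stricter cut at r = 0.6 left 10 members in clusters of that size, and so did clustering the residuals after session and sex.

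The first cluster held 13 members on 11 scaffolds, with a median pair r of 0.629, and was high in July 2016 female 6 and low in September 2017 female 2. Locus NW_017842948.1:5480147-5518943, its member of highest SD, stood at 346 FPKM in July 2016 female 6 and at 14.1 FPKM in September 2017 female 2. Its July 2016 values ran from 31.9 over a median of 82.5 FPKM, its June 2017 females ran from 26.8 over 106 to 232 FPKM, and the June 2017 males stood at 71.9, 207 and 31.9 FPKM. The other September females stood at 41.2, 41.1, 35.9 and 23.1 FPKM and the males at 23.4, 26.8 and 116 FPKM, so all groups overlapped. Loci NW_017843431.1:305910-320677 (1.08 to 17.1 FPKM) and NW_017844586.1:13758912-13767665 (7.46 to 84.9 FPKM) had the same highest and lowest library. Of the 13 members, 8 were highest in July 2016 female 6 and 9 lowest in September 2017 female 2. The median pair r was 0.583 without July 2016 female 6 and 0.529 without both libraries.

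The second cluster held 12 members, and all 12 were highest in June 2017 male 3. Among them, NW_017842414.1:7782510-7802344 and NW_017843879.1:10731810-10738513 reach the mean of 5 FPKM that the rule asks for only through this library. At NW_017842414.1:7782510-7802344, SD rank 8, the June 2017 males stood at 10.3, 5.18 and 95.9 FPKM. July 2016 females ran from 0.476 over a median of 4.05 to 21.9 FPKM, June 2017 females from 0.582 over 3.39 to 5.99 FPKM, and the September 2017 libraries stood at 2.97, 0.397, 2.88, 2.29 and 3.88 FPKM in females and 9.64, 11.0 and 2.91 FPKM in males. At NW_017843879.1:10731810-10738513 the same male reached 62.0 FPKM, where the median over all libraries was 1.93 FPKM, and at NW_017843244.1:7986167-8002627 it reached 142 FPKM over a median of 15.3 FPKM. The next libraries in order of the cluster mean were July 2016 female 2 and September 2017 male 2. The median pair r was 0.625 with all libraries and 0.394 without June 2017 male 3. That library also had the highest share of summed FPKM in its 10 most abundant loci, 41.0%. With that share as a term of the model, 0 of the 300 members and 0 of the 13192 tested loci were called. At the 3 loci of this cluster named above, the slope with the share was positive. It ran from 1.43 to 1.74 (limma adjusted p from 0.767 to 0.833). All 3 loci are highest in June 2017 male 3, and the cluster as a set was not tested.

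The third cluster held 10 members whose cluster mean, centred on each member, ran from -1.24 to 0.03 in July 2016 with a median of -0.36. In June 2017 it ran from -0.36 to 1.21 with a median of 0.49, and June 2017 males 2 and 3 lay inside the July range. In September 2017 it ran from -0.78 to 0.79 with a median of -0.23. The fourth cluster held 10 members. Its centred mean ran from 0.23 to 1.03 in July 2016 and from -1.0 to -0.03 in June 2017, with no overlap, and from -0.08 to 0.41 in September 2017. Leaving out the 2 libraries farthest from the rest changed the median pair r from 0.667 to 0.596 in cluster 3 and from 0.646 to 0.618 in cluster 4. On the residuals after session and sex, 4 of the 10 members of cluster 3 stayed together and 2 of the 10 of cluster 4. Of cluster 1, 8 of the 13 members stayed together, and of cluster 2, 9 of the 12.

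**Figure D4:**
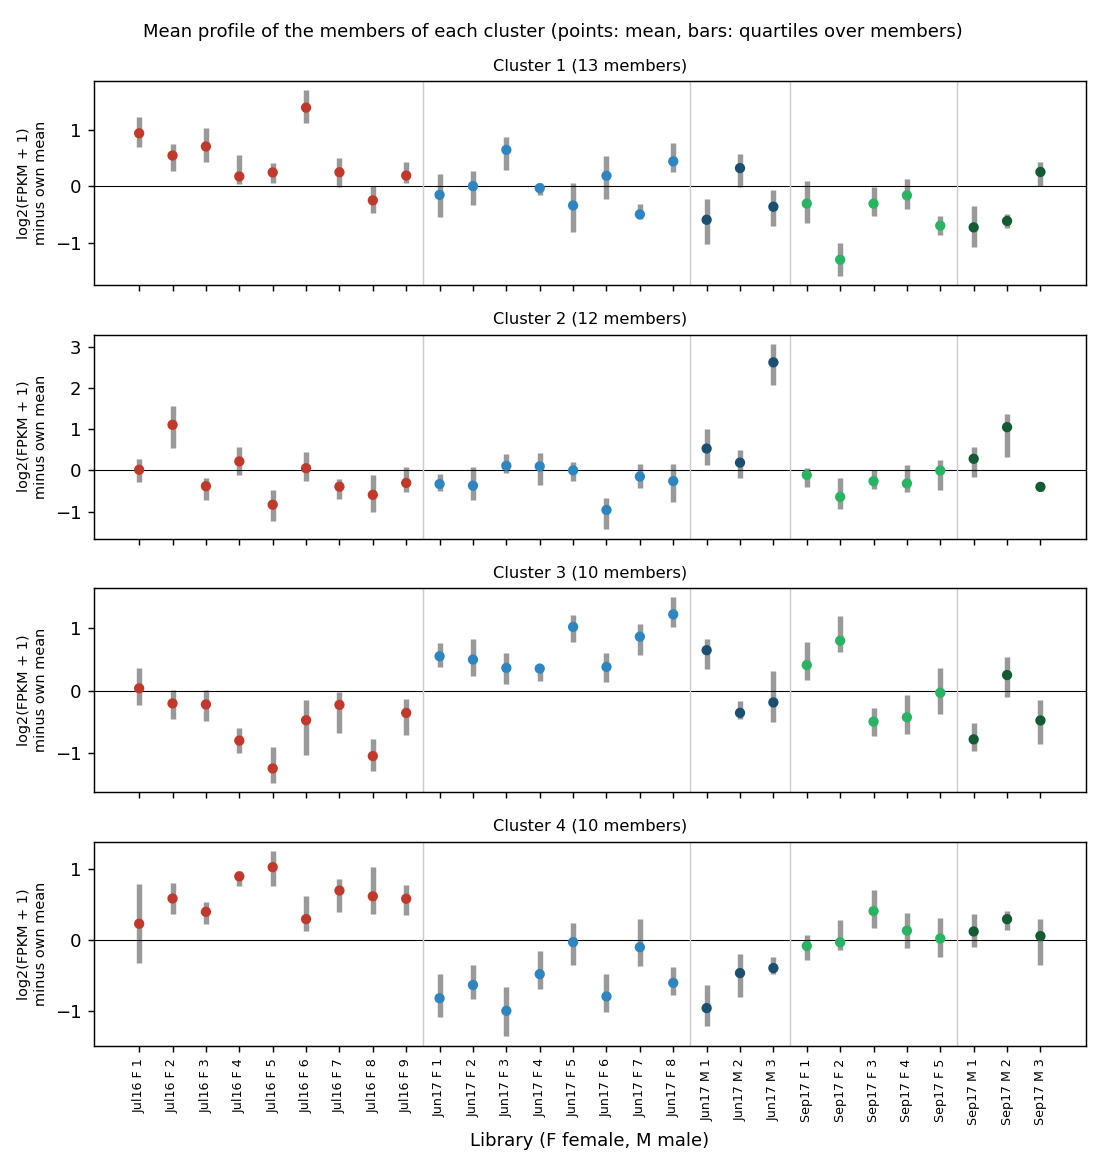
Mean level of the members of each of the 4 clusters in each library (points), as log2(FPKM + 1) minus the mean of each member, with the quartiles over members as bars; libraries are ordered by session and sex (F female, M male). Clusters 1 and 2 peak in July 2016 female 6 and June 2017 male 3, while cluster 4 lies at 0.23 to 1.03 in July 2016 and at -1.0 to -0.03 in June 2017.

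Between July 2016 and June 2017, 44 members were called at a limma adjusted p under 0.05, 26 higher and 18 lower in July. This is 14.7% of the members, where 7.24% of the 13192 tested loci were called, 5.06% higher and 2.18% lower, and 3.33% of the 300 least variable candidates. Members were chosen for a spread that contains any difference between sessions, so the larger share describes the list. The median of the absolute differences was 0.30 on the log2 scale in members and 0.16 over all tested loci. The called members differed by a median of 1.84-fold, 18 of them by over 2-fold, where 0.553% of tested loci were called with such a difference. In 4 called members the 9 July libraries and the 11 June libraries did not overlap, as in 0.402% of tested loci. The split of calls moved with the scaling of libraries, to 21 higher and 22 lower under median-of-ratios factors and 23 higher and 19 lower under quantile normalization. Without July 2016 female 6 there were 45 calls, 23 higher and 22 lower, and without June 2017 male 3 there were 43.

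The largest rise toward July 2016 was at NW_017843712.1:37087019-37146777. July 2016 females stood at 1.89, 9.93 and 17.0 FPKM (lowest, median, highest), June 2017 females at 1.46, 2.63 and 6.07 FPKM, and June 2017 males at 2.45, 6.14 and 3.61 FPKM. All July libraries but female 6, at 1.89 FPKM, were above all June libraries. The difference was 1.49 (SE 0.265, limma adjusted p = 0.00093).

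Locus NW_017843503.1:7995437-8011673 was higher in July 2016 than in both later sessions. July 2016 females stood at 11.8, 19.2 and 28.8 FPKM, June 2017 females at 4.03, 7.14 and 10.5 FPKM, and June 2017 males at 2.80, 5.42 and 6.76 FPKM. September 2017 females stood at 8.46, 1.93, 8.39, 10.3 and 6.03 FPKM and males at 7.73, 5.78 and 11.6 FPKM. No later library reached the lowest July library. July minus June was 1.47 (SE 0.225, limma adjusted p = 0.000261) and September minus July was -1.30 (SE 0.250, limma adjusted p = 0.00641).

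At NW_017842794.1:60224285-60274080 July 2016 females stood at 8.64, 15.3 and 23.9 FPKM, June 2017 females at 1.63, 5.02 and 12.1 FPKM and June 2017 males at 6.33, 4.84 and 7.49 FPKM. The groups overlapped only through the lowest July library and the highest June females. The difference was 1.45 (SE 0.218, limma adjusted p = 0.000258). September 2017, at 8.43 to 17.8 FPKM, lay inside the July range but for 1 library.

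The largest falls were at a pair of loci that overlap each other on scaffold NW_017843244.1. At 7159498-7174906 all July 2016 values, 1.05 to 6.91 FPKM, lay under all June 2017 values, 7.75 to 32.1 FPKM (difference -2.18, SE 0.233, limma adjusted p = 2.55e-06). At 7086723-7160685 July 2016 females stood at 4.08, 10.9 and 22.5 FPKM, June 2017 females at 24.5, 37.6 and 59.7 FPKM and June 2017 males at 37.2, 15.6 and 10.5 FPKM. Here all June females were above all July females, and 2 of the 3 June males lay inside the July range (difference -1.70, SE 0.300, limma adjusted p = 0.000892). The r between both loci was 0.831, and fragments from their shared bases cannot be told apart.

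The third largest fall was at NW_017843484.1:8272831-8277938. July 2016 females stood at 0.0388, 1.86 and 6.34 FPKM, June 2017 females at 2.65, 6.10 and 12.8 FPKM and June 2017 males at 2.21, 3.61 and 5.83 FPKM. The groups overlapped, and July 2016 female 9 stood apart at the low end. The difference was -1.17 (SE 0.307, limma adjusted p = 0.0186), and over the left-out libraries and other settings it ran from -1.69 to -0.97.

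**Figure D5:**
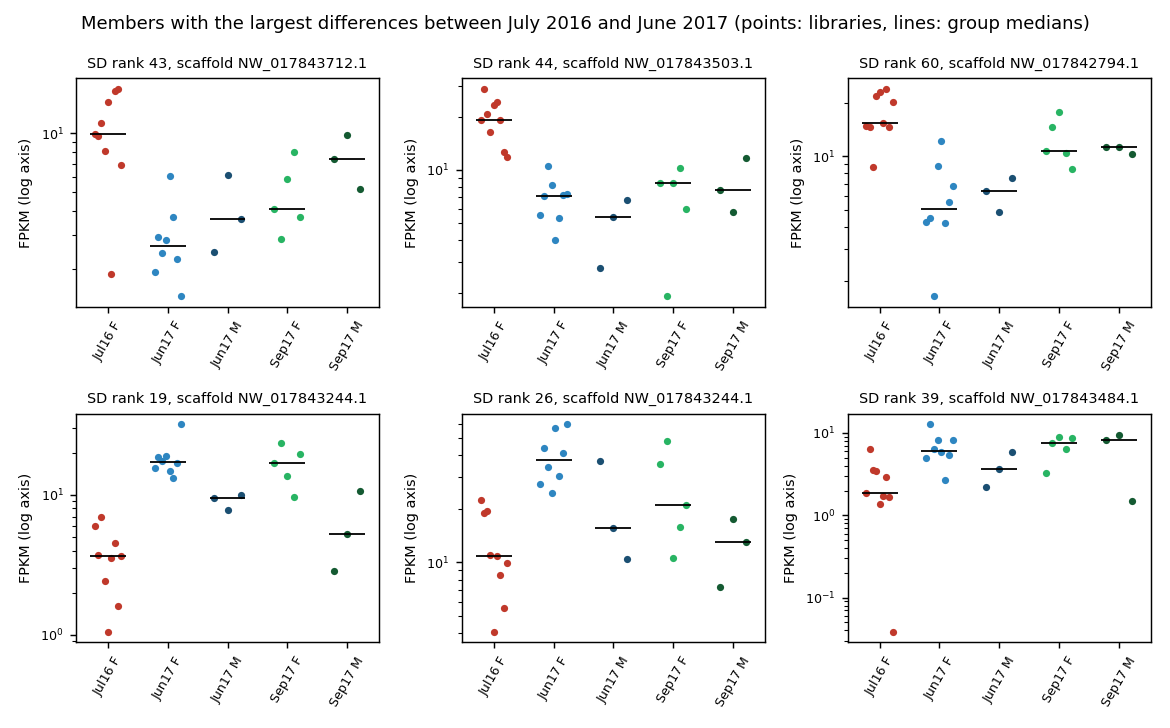
FPKM (vertical log axis) of the 3 members with the largest rise (upper row) and the 3 with the largest fall (lower row) in July 2016 against June 2017, by group of session and sex (Jul16, Jun17, Sep17; F female, M male); each point is a library and each line a group median. At SD rank 44 the July values, 11.8 to 28.8 FPKM, all lie above the June values, and at SD rank 19 all lie below them.

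Of the 44 calls 18 came from 2 of the clusters. All 10 members of the fourth cluster were called higher in July 2016 than in June 2017, and 8 of the 10 members of the third were called lower. Of the first cluster 4 members were called higher, and of the second 0. The clusters were formed on the same values, so these counts describe which members made up the 44 calls.

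Between September 2017 and July 2016, 14 members were called by limma, 5 higher and 9 lower in September (4.67%, against 1.95% of tested loci, of which 0.652% higher and 1.3% lower). The spread that chose the members contains this difference as well, so the larger share describes the list. The comparisons of July 2016 with June 2017 and with September 2017 share the July 2016 libraries. Called in both were 10 members, where 1.29% of tested loci were, 5 of them higher in July than in either 2017 session and 5 lower. Leaving out 1 library at a time gave between 5 and 16 calls, 10 without July 2016 female 6 and 15 without June 2017 male 3. The count was 5 without September 2017 female 2 or female 5, 7 without female 4, 8 without female 3, and 9 without July 2016 female 1 or female 2.

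The largest rise in September was at the locus of SD rank 19 on scaffold NW_017843244.1, 7159498-7174906, where September 2017 stood at 16.8, 23.7, 13.6, 9.73 and 19.8 FPKM in females and at 2.87, 5.27 and 10.7 FPKM in males. All September females were above the July range of 1.05 to 6.91 FPKM, and 2 of the 3 males lay inside it (difference 1.88, SE 0.258, limma adjusted p = 0.000272). That difference is adjusted for sex, and male minus female was -1.12 at this locus (SE 0.246, limma adjusted p = 0.0763). The next largest rise was at NW_017843484.1:8272831-8277938. There the September females stood at 3.23, 7.50, 9.02, 6.35 and 8.65 FPKM and the males at 8.31, 9.48 and 1.51 FPKM. These values overlapped the July values (difference 1.35, SE 0.340, limma adjusted p = 0.0338). Removing any one of July 2016 females 1, 5, 6 and 9 or September 2017 females 2 to 5 ended this call, as did a pseudocount of 0.1, no filter on low values, and a fit of females only.

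The third largest rise was at NW_017842982.1:8267516-8274737. July 2016 females stood at 3.75, 8.66 and 14.2 FPKM, September 2017 females at 14.7, 19.8, 16.3, 21.3 and 25 FPKM and September 2017 males at 11.5, 8.87 and 8.87 FPKM. All September females were above all July females, while the males lay inside the July range. The difference was 1.09 (SE 0.252, limma adjusted p = 0.0211), and removing September 2017 female 4 or female 5 ended the call, with an adjusted p of up to 0.0576. This difference too is adjusted for sex, and male minus female was -0.66 here (SE 0.240, limma adjusted p = 0.805).

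The falls next in size to that at NW_017843503.1:7995437-8011673 were at NW_017842906.1:7416079-7502906 and NW_017844411.1:803283-831341. At the former, July 2016 females stood at 4.71, 9.02 and 11.3 FPKM, September 2017 females at 4.0, 7.29, 3.24, 2.75 and 2.42 FPKM and males at 6.21, 7.72 and 2.96 FPKM (difference -0.96, SE 0.213, limma adjusted p = 0.0146). At the latter, July 2016 females stood at 5.53, 7.89 and 12.8 FPKM, September 2017 females at 3.37, 1.22, 6.28, 7.20 and 3.39 FPKM and males at 2.03, 2.18 and 7.39 FPKM (difference -0.96, SE 0.244, limma adjusted p = 0.0358). Both pairs of groups overlapped. The second call was lost without any one of July 2016 females 1, 2, 6 and 7 or September 2017 females 1, 2 and 5, without a filter on low values and in females only, with an adjusted p of up to 0.0982.

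Between September and June 2017 limma called 0 members, and 0.0379% of tested loci. An unadjusted p under 0.05 was seen for 65 members with limma, 21.7% against 12.0% of tested loci. Ordinary least squares called 0 members as well, with 57 at an unadjusted p under 0.05, 19% against 11.9%. Leaving out 1 library gave up to 4 calls. There were 4 without June 2017 female 6, 3 without July 2016 female 6 or September 2017 female 2, 2 without July 2016 female 2, June 2017 female 7, June 2017 male 2 or September 2017 female 1, and 1 without June 2017 female 5. The members differed between these sessions by a median of 0.31 in absolute value on the log2 scale, against 0.13 over all tested loci. Members were chosen for a spread that contains this difference, so the larger median and the larger shares of unadjusted p describe the list.

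With relative depth added as a term, limma called 2 members, both higher in deeper libraries (0.667%, against 0.25% of tested loci). They were NW_017842395.1:3465140-3515711, which ran from 0.988 FPKM in September 2017 female 3 to 25.8 FPKM in September 2017 female 4, and NW_017843947.1:24834179-24847493, which ran from 4.68 to 31.8 FPKM. Their slopes per doubling of depth were 3.13 (SE 0.616, limma adjusted p = 0.0354) and 2.07 (SE 0.433, limma adjusted p = 0.0396) on the log2 scale. The count ran from 0 to 9 as single libraries were left out. It was 2 without July 2016 female 6 or June 2017 male 3. There were 9 without September 2017 female 1, the deepest library, and 4 without September 2017 female 2. There was 1 without June 2017 female 3, 5 or 6, September 2017 female 4, or September 2017 male 1 or 3. There were 0 without July 2016 female 2, 4, 5, 7 or 9, June 2017 female 2, 4 or 7, or September 2017 female 3 or 5. With the share of the 10 most abundant loci as the term, limma called 0 members and 0 of all tested loci (background 0%), with 24 members, 8% against 6.26% of tested loci, at an unadjusted p under 0.05 and 0 called by ordinary least squares.

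Few members lay next to each other. Among all members 10 pairs of members were direct neighbours among the tested loci, and there was no run of 3. The 9 neighbour pairs without overlap had r between -0.42 and 0.77 with a median of 0.15, and the 2120 such pairs of candidates had a median of 0.10. The pairs with the highest r were NW_017842545.1:5495059-5504573 with 5507840-5530026 (r = 0.774), and NW_017843021.1:2846128-2853694 with 2908938-2928297 (r = 0.740). Both loci of the second pair had July 2016 female 6 alone above a gap.

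Of the members, 84, or 28%, overlap another locus of the table, against 24.2% of the other candidates. Among them 62 overlap a locus with a mean of at least 0.5 FPKM, in 64 pairs with a median r of 0.05. In 10 of these pairs the r was over 0.5 and in 2 it was under -0.5, the lowest being -0.54 at NW_017843051.1:18006944-18094310.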

How the data were processed

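RNA of archived skin was sequenced in 28 libraries, 1 per animal. Tools named in the submitters' processing notes are Cufflinks 2.2.1, TopHat2 2.1.1 with Bowtie, Trimmomatic 0.33 and FastQC 0.1. The guide genome in the design text is NIST Tur_tru v1. Not given in the sources used here are settings, annotation, strand use and further scaling. The table that the authors deposited names no unit, and FPKM was inferred from its values and from Cufflinks. It holds no counts, so a count test was not made.

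Columns were matched to samples by title, sessions follow the sampling dates, and sex follows its label. Replicates are different animals, so p-values set differences against the spread between animals and libraries within sessions. Each session is a single stretch of dates, so p-values between sessions do not cover variation from one sampling session to another. Positions are 1-based. A gene table of another assembly matched 0 of the rows.

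Levels were log2(FPKM + 1), which understates differences of low loci. The model had additive terms for session and sex. It was fitted with limma 3.58.1 (R 4.3.3) using robust empirical Bayes with a trend, left 24 residual degrees of freedom, and took the 13192 loci averaging at least 1 FPKM, all 300 members among them. Tests were two-sided, with Benjamini-Hochberg adjustment over these loci. Relative depth was derived from low-value ratios at 4754 loci averaging under 0.5 FPKM. In 100% of 378 library pairs it lay within 0.05 (log2) of the ratio in that pair. Depth itself is unknown. Depth and the share of the 10 most abundant loci were each added as a term. Clusters came from average linkage on Pearson r. The model was tested on simulated data.

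Loci were named by rule, namely the 10 highest SDs, up to 3 rises and 3 falls called per comparison, the 3 members nearest to each cluster mean and the one of highest SD, and 3 loci on each side of the SD limit. The stepped loci, the single-library gaps and the neighbour and overlap examples were added after their values were seen. The members, lists and tests were chosen with earlier results of these data known. Alternatives were ordinary least squares, a pseudocount of 0.1, no filter, other scalings, other sets of libraries, the mitochondrial level as a covariate, and each library left out.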

Additional observations from a re-analysis of the deposited data

Results flagged for a closer look

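In 123 groups of 5 to 9 libraries at the 41 named loci, 10 groups held a library whose distance to its nearest neighbour was large for the range of the group. Chance gives about 1 in 20 such groups where loci are not chosen for their values. These loci were named for a high SD, a call or a step in the same libraries, so that rate is no yardstick for the 10. No explanation was tested. At NW_017843107.1:380923-390735 these were July 2016 female 7 at 104.825 FPKM, where the next highest of the group was 0.322654 FPKM, and September 2017 female 2 at 0.5315 FPKM, above 0.257406 FPKM. July 2016 female 3 was high at NW_017844293.1:9612247-9666065, with 29.9576 FPKM above 3.14904 FPKM, and low at NW_017842794.1:60224285-60274080, with 8.63849 FPKM below 14.5098 FPKM. September 2017 female 2 was low at NW_017842906.1:535322-550582, with 0.0720952 FPKM below 7.26931 FPKM. July 2016 female 6 was low at NW_017843712.1:37087019-37146777, with 1.89272 FPKM below 6.89295 FPKM.

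June 2017 female 8 was high at NW_017843244.1:7159498-7174906, with 32.113 FPKM above 18.946 FPKM. September 2017 female 5 was high at NW_017843879.1:10731810-10738513, with 6.17232 FPKM above 1.8437 FPKM. September 2017 female 3 was low at NW_017843746.1:3183127-3188523, with 0.619367 FPKM below 5.26108 FPKM, and September 2017 female 1 was low at NW_017842605.1:882492-897019, with 10.8495 FPKM below 12.2695 FPKM.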

How the results depend on the processing

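No paired analysis was possible because each library came from a different animal. Over the single libraries left out, the members called ranged from 34 to 45 for July 2016 against June 2017, from 5 to 16 for September 2017 against July 2016, from 0 to 4 for September against June 2017, from 1 to 2 between the sexes, from 0 to 9 with relative depth, and stayed at 0 with the share of the 10 most abundant loci. The other settings gave 32 to 48 calls for July 2016 against June 2017. For September 2017 against July 2016 there were 7 without a filter on low values. Between September and June 2017 there was 1 with median-of-ratios scaling, 1 with quantile normalization and 3 without the library whose title year differs. Between the sexes there were 2 with the 2017 libraries only and 2 with the mitochondrial level as a covariate. With relative depth there were 0 under ordinary least squares, 0 without a filter, 1 in females only and 0 with the mitochondrial level. The causes of these moves were not tested. Of the 300 members, the rule kept 275 with a pseudocount of 0.1, 282 after median-of-ratios scaling, 216 with the median absolute deviation in place of the SD, 251 in the 22 females, 252 on residuals after session and sex, and 275 to 294 with 1 library left out. In clusters of at least 10 there were 10 members on residuals and 10 with the tree at r = 0.6. Of 546 refits of the named loci 489 stayed on their side of the threshold, 57 lost the call and 0 changed sign. FPKM without depth gives no counting error, so differences at the lowest values, under about 1 FPKM, are the least precise.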
